A study of Mus musculus with 18 samples.

Results

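The 6 genes described here encode the plasminogen activators Plau and Plat, the activator receptor Plaur, and the serpins Serpine2, Serpinb2 and Serpinf1. They were chosen by name from 55401 gene identifiers in the count table, without a threshold on any measured value. Earlier results of these data were known at that choice. All 6 had enough counts to be tested in every comparison. Polyadenylated RNA was sequenced from 18 MEF cultures (mouse embryonic fibroblasts, the primary cells that grow out of embryos once head and viscera are removed), in 6 groups of 3 libraries that form 2 genetic series. The S6K1 series held S6K1 wild-type cells with an empty vector (WT EV), S6K1 wild-type cells expressing RAS (WT RAS) and S6K1 knockout cells expressing RAS (KO RAS). The S6K1/S6K2 series held wild-type cells with an empty vector (WT EV), wild-type cells expressing RAS (WT RAS) and S6K1/S6K2 double knockout cells expressing RAS (DKO RAS). Rps6kb1 encodes S6K1 and Rps6kb2 encodes S6K2, both kinases of the ribosomal protein S6 that act downstream of mTOR.

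RAS was a constitutively active HRAS delivered by a retrovirus, and it drives MEFs into oncogene-induced senescence. The methods name different retroviral backbones for RAS and for the empty vector, so RAS and backbone cannot be told apart. S6K1 WT and KO embryos came from the same mothers. DKO embryos came from crosses of mice that already lacked S6K2, whereas their WT controls came from WT mothers of an earlier breeding stage, so genotype and breeding stage cannot be told apart in that series. No KO or DKO culture with an empty vector was analysed here. The study asked how S6K affects the secretome of senescent cells, and the 6 genes were examined for the response to RAS and for the effect of S6K loss on RAS cells.

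Plasminogen activators cut the circulating proenzyme plasminogen into plasmin, a broad protease that dissolves fibrin and degrades extracellular matrix. Plau encodes urokinase (uPA), which acts mainly at cell surfaces when bound to its GPI-anchored receptor uPAR, the product of Plaur. Plat encodes the tissue-type activator tPA, which binds fibrin. Serpins are suicide-substrate inhibitors that trap serine proteases. Serpine2 (protease nexin-1) is secreted and inhibits thrombin as well as both activators, and Serpinb2 (plasminogen activator inhibitor type 2) inhibits both activators and is largely kept inside the cell. Serpinf1 (pigment epithelium-derived factor, PEDF) has the serpin fold but is not known to inhibit proteases and is known as an anti-angiogenic secreted protein. Secreted proteases, their receptors and their inhibitors are a recognised part of the senescence-associated secretory phenotype.

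Promoter sequence is shown for the receptor and the serpin that rose with RAS, and for the serpin that fell, because the direction of the response separated them. Sequences are from RefSeq on GRCm38.p6, run from 250 bases before to 50 bases after an annotated start, and are written 5′ to 3′ on the strand of the gene. The promoter table used here held 4 of the 6 genes, without Plau and Plat. Capitals mark matches, on either strand, to the AP-1 site TGACTCA, the GC box GGGCGG or the TATA motif TATAAA, 3 motifs chosen after the sequences were read.
Plaur, chr7:24462233-24462532, plus strand: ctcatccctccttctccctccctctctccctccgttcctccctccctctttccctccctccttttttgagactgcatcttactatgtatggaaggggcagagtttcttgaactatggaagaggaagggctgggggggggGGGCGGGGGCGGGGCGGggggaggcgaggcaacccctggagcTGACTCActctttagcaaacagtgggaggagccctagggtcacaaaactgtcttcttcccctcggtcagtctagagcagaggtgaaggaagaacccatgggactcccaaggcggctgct
Serpinb2, chr1:107511173-107511472, plus strand: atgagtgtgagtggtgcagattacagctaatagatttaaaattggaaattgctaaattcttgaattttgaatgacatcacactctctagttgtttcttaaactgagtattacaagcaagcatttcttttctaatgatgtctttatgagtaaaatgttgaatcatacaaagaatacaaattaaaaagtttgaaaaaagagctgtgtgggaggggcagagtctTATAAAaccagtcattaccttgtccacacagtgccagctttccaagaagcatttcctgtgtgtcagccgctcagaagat
Serpinf1, chr11:75422574-75422873, minus strand: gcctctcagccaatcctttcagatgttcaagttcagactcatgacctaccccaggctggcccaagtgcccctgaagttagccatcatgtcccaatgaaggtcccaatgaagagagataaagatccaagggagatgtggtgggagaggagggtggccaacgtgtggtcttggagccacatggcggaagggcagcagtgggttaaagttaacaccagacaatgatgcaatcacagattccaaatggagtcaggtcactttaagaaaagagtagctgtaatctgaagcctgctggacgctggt
The Plaur window held 1 AP-1 match, whose first base lies at -69 from the start, and 3 GC box matches. The first Serpinb2 window held 1 TATA match at -29 and no match to the other motifs. From a second annotated Serpinb2 start, whose overlapping window is not printed, the same TATA letters lie at -116. The Serpinf1 window held no match to any of the 3 motifs. The Serpine2 window, chr1:79858616-79858915 on the minus strand, held 6 GC box matches and had a GC content of 77.7%, against 35.3% in the first Serpinb2 window. Of all 32851 promoter windows of this length, 5.2% held the AP-1 letters, 35.7% the GC box and 13.6% the TATA motif. A match is a description of the letters only.

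Total counts per library ranged from 8319445 to 14402442. Levels are given in counts-per-million (CPM), scaled by TMM within each series, so that levels in the 2 series are set on separate scales. In the S6K1 series Rps6kb1 had a mean of 68.9 ± 6.73 CPM with WT RAS against 30.6 ± 6.74 with KO RAS, without overlap (adjusted p = 0.234, and 0.000101 with the replicate number as a block, edgeR). For the double knockout the means of Rps6kb1 were 80.5 ± 4.44 (WT RAS) and 37.4 ± 2.69 CPM (DKO RAS), and Rps6kb2 was 25.8 ± 2.67 and 2.83 ± 0.186 CPM (SD, n = 3), and both passed the test. Hras was higher in every RAS library (90.2 to 141 CPM) than in every EV library (50.7 to 72.6 CPM), and how much transgene RNA these counts hold was not tested. All 10 fibroblast markers were above 3 counts in every library. The summed level of 17 macrophage markers ranged from 78.0 to 4134 CPM over the libraries. With EV the S6K1 series had 3813, 2957 and 783 CPM, and with RAS its WT libraries of the same numbers had 4134, 3679 and 812 CPM. Libraries of KO RAS held 275 to 978 CPM of these markers, and DKO RAS held 78.0 to 271 CPM, against 190 to 1122 CPM in their WT RAS controls.

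Urokinase had the largest rise in level per kilobase of exon among the 6 genes when WT cells expressed RAS. In the S6K1 series Plau (chr14:20836662-20843388) had 191, 120 and 140 CPM with EV and 1478, 1415 and 985 CPM with RAS. The S6K1/S6K2 series had 61.6, 40.6 and 108 CPM with EV and 1316, 796 and 887 CPM with RAS. Every RAS library was far above every EV library of its series, and the lowest count behind a value was 460. The mean difference was 3.10 on the log2 scale (SE 0.347, adjusted p = 0.000667, edgeR), an 8.60-fold rise, in the S6K1 series. For the S6K1/S6K2 series it was 3.84 (SE 0.547, adjusted p = 0.00133), a 14.3-fold rise. The call held in all 17 alternative fits of each comparison. Against this, 13.2% of 14036 genes tested were called in the S6K1 series (7.15% higher and 6.09% lower), and 26.3% of 13881 in the S6K1/S6K2 series (13.5% higher and 12.7% lower).

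The other activator did not pass the test. Plat (chr8:22757722-22782848) had 187, 170 and 169 CPM with EV and 172, 218 and 196 CPM with RAS in the S6K1 series. The S6K1/S6K2 series had 70.1, 114 and 119 CPM with EV and 143, 113 and 159 CPM with RAS. The EV and RAS libraries overlapped in both series. The difference was 0.16 on the log2 scale (95% interval -0.16 to 0.48, adjusted p = 0.532) in the S6K1 series and 0.45 (0.0036 to 0.91, adjusted p = 0.123) in the S6K1/S6K2 series. These intervals lie below the rise of Plau in the same libraries.

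The urokinase receptor moved in the same direction as its ligand, by less. Plaur (chr7:24460937-24475970) had 33.9, 22.2 and 20.6 CPM with EV and 69.1, 56.1 and 38.4 CPM with RAS in the S6K1 series. The S6K1/S6K2 series had 10.1, 10.1 and 14.5 CPM with EV and 54.2, 41.8 and 39.9 CPM with RAS. The groups did not overlap in either series, although the lowest RAS library of the S6K1 series came close to the highest EV library. Plaur rose by 1.97 on the log2 scale in the S6K1/S6K2 series (SE 0.254, adjusted p = 0.000849), or 3.92-fold. The difference of 1.09 (SE 0.339) in the S6K1 series missed the threshold (adjusted p = 0.0674). The labels number WT cultures alike with EV and with RAS, and within these numbered pairs Plaur was higher with RAS by 1.03, 1.33 and 0.90. With the replicate number as a block the adjusted p was 0.000178, and the genes called overall rose from 13.2% to 36.2%. In all, 7 of 17 alternative fits called it, among them DESeq2 (adjusted p = 0.0158), the fit with no filter (0.00935), that of all 18 libraries (0.0292) and that without WT RAS replicate 3, the lowest RAS library (0.0395). The call in the S6K1/S6K2 series was lost when all replicate 2 libraries were left out (adjusted p = 0.0533).

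**Figure D1:**
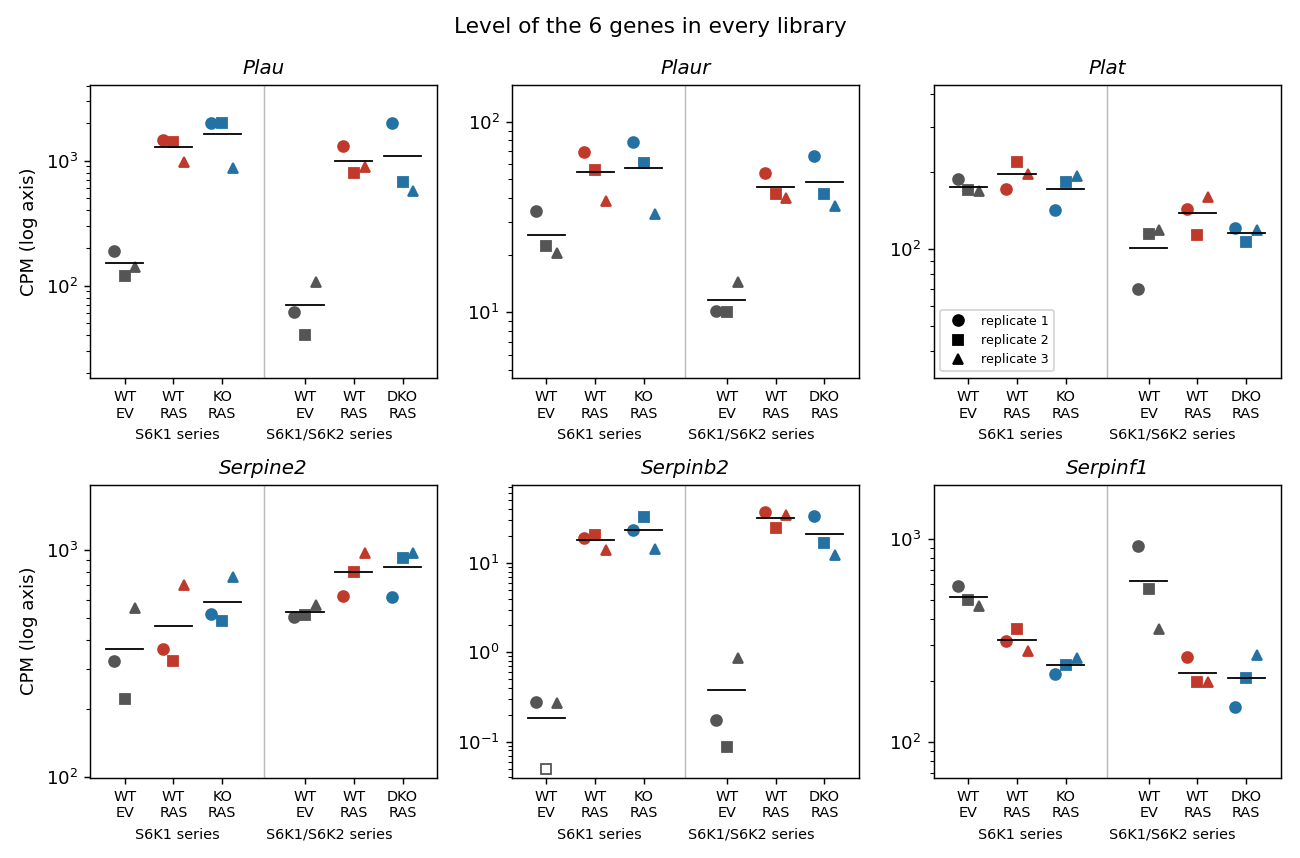
Level of the 6 genes in each of the 18 libraries, in CPM on a log axis, with 1 panel per gene, symbols by replicate number and a line at each group mean. Plau, Plaur and Serpinb2 sit higher in every RAS library than in every WT EV library of their series, except Plaur in KO RAS replicate 3 at 32.8 CPM against WT EV replicate 1 at 33.9 CPM, and the open symbol at the bottom of the Serpinb2 panel is a library with 0 counts.

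Serpinb2 had the largest fold change of the 6 genes and went from near absence to a modest level. Serpinb2 (chr1:107500892-107525600) had 4, 0 and 3 counts in WT EV and 222, 266 and 176 counts in WT RAS of the S6K1 series. It had 2, 1 and 10 counts in WT EV and 348, 207 and 368 counts in WT RAS of the S6K1/S6K2 series. The WT RAS levels were 17.9 ± 3.40 and 32.1 ± 6.69 CPM (SD, n = 3). Because the EV groups held only 7 and 13 counts, the size of the rise is given as a ratio of shares of all counts with an exact 95% interval for counting error. It was 102-fold (49.4 to 255) in the S6K1 series and 81.3-fold (47.3 to 153) in the S6K1/S6K2 series. Fitted log2 differences were 6.55 (SE 0.559, adjusted p = 0.000223) and 6.36 (SE 0.612, adjusted p = 0.000205), and the call held in all 16 alternative fits of each series that kept the gene. The size rests on few EV counts: without WT EV replicate 3, which held 10 of the 13 EV counts of the S6K1/S6K2 series, the fitted difference was 7.81, and without all replicate 3 libraries it was 7.77. The S6K1 series gave 5.85 without all replicate 2 libraries.

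Serpine2, the secreted inhibitor of thrombin and of both activators, showed a small difference. Serpine2 (chr1:79794317-79858665) had 324, 221 and 555 CPM with EV and 365, 325 and 703 CPM with RAS in the S6K1 series. The S6K1/S6K2 series had 507, 515 and 573 CPM with EV and 625, 802 and 967 CPM with RAS. In the S6K1 series replicate 3 was highest with and without RAS, and the groups overlapped. There was no overlap in the S6K1/S6K2 series. The difference was 0.34 on the log2 scale (SE 0.382, adjusted p = 0.623) in the S6K1 series and 0.59 (SE 0.207, adjusted p = 0.0625) in the S6K1/S6K2 series. With the replicate block both were called, at 0.35 (SE 0.122, adjusted p = 0.0474) and 0.56 (SE 0.156, adjusted p = 0.0321). In the S6K1/S6K2 series this block also covers the DKO libraries, whose numbers are not pairs with those of WT. Within the numbered WT pairs Serpine2 was higher with RAS in all 6, by 0.17 to 0.56 and by 0.30 to 0.76. Without WT RAS replicate 3 and without the block, the difference in the S6K1 series was -0.07. For the S6K1/S6K2 series 5 of 17 alternative fits called it, among them DESeq2 (adjusted p = 0.0175) and that without WT RAS replicate 1 (0.0356). Serpine2 was lowest in the S6K1 series libraries with the highest macrophage marker level (replicates 1 and 2, 2957 to 4134 CPM in WT cells), against 783 and 812 CPM in replicate 3, and the part of these cells in its level was not tested.

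Serpinf1 was the only one of the 6 genes that fell with RAS. Serpinf1 (chr11:75410029-75422623) had 583, 496 and 468 CPM with EV and 313, 359 and 278 CPM with RAS in the S6K1 series. The S6K1/S6K2 series had 922, 563 and 360 CPM with EV and 260, 196 and 197 CPM with RAS. All EV libraries were above all RAS libraries of their series. Serpinf1 fell by 0.70 on the log2 scale (SE 0.139, adjusted p = 0.00996) in the S6K1 series and by 1.50 (SE 0.329, adjusted p = 0.00967) in the S6K1/S6K2 series, to 0.614 and 0.353 of the EV level. In the S6K1 series the call was lost in the fit of all 18 libraries (adjusted p = 0.102) and when all replicate 1 or all replicate 2 libraries were left out (0.0921 and 0.123). The call was lost in the S6K1/S6K2 series without all replicate 2 libraries (0.157). In bulk RNA, fewer cells that express a gene and less RNA per cell cannot be told apart.

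**Figure D2:**
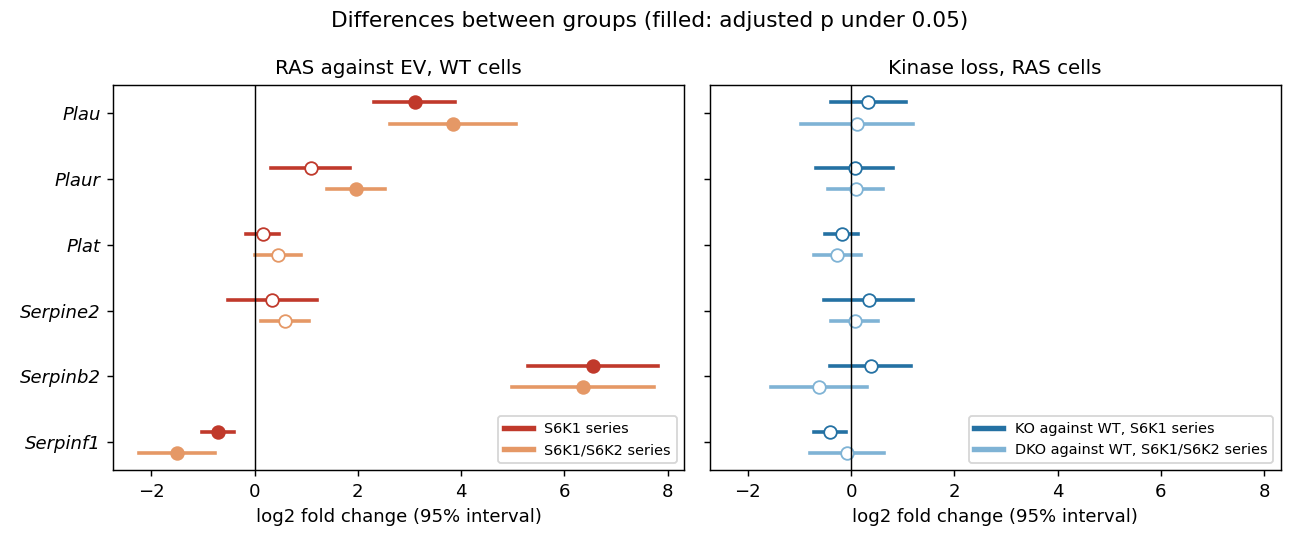
log2 fold change of the 6 genes with its 95% interval, for RAS against EV in WT cells (left) and for S6K loss among RAS cells (right), filled where the adjusted p is under 0.05. With RAS, Plau and Serpinb2 lie above 2 and Serpinf1 below 0 in both series, and all 12 points for S6K loss are open and lie between -0.62 and 0.38.

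In all, 3 of the 6 genes were called in the S6K1 series and 4 in the S6K1/S6K2 series, 2 and 3 of them higher, beside 13.2% and 26.3% of all genes tested. With the replicate block these counts were 5 and 5, beside 36.2% and 28.7% of all genes tested. DESeq2 called 4 and 5, beside 17.6% and 29.8%. Because the 6 genes were chosen with earlier results of these data known, these counts describe the 6 and do not test them as a set. The difference in the RAS response between the series was tested for all 6 genes in a fit of the 18 libraries and none was called, nor was any gene of the 14483 tested in edgeR (0%, with 1819 at an unadjusted p under 0.05, and 143 called by DESeq2). The nearest of the 6 was Serpinf1, with a response lower by 0.81 in the S6K1/S6K2 series (95% interval -1.60 to -0.012, unadjusted p = 0.0471, adjusted p = 0.392). Plaur differed by 0.86 (-0.10 to 1.83, adjusted p = 0.438). Series and experiment cannot be told apart in this test.

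The order of the 6 genes changed with RAS when levels were set per kilobase of exon. In WT EV the order was Serpinf1, Serpine2, Plat, Plau, Plaur and Serpinb2 in both series, with Serpinf1 at 219 and 261 CPM per kb and Plau at 64.2 and 29.9. In the S6K1 series the EV levels of Serpine2 and Plat overlapped, as did those of Plat and Plau. Only those of Plat and Plau did in the S6K1/S6K2 series. In WT RAS Plau stood first, at 552 and 427 CPM per kb, above every library's value for the next gene. Plaur and Serpinb2 stayed in the last 2 places in every group. In WT RAS they were at 39.1 and 7.62 CPM per kb in the S6K1 series, and at 32.4 and 13.6 in the S6K1/S6K2 series. Exon lengths, 1396 bases for Plaur to 3830 for Serpine2, are the union of annotated exons on NCBIM37.

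Ratios of 2 genes within 1 library do not depend on how libraries are scaled. The Plau to Plaur ratio was 5.63, 5.40 and 6.80 counts per count in WT EV and 21.4, 25.2 and 25.6 in WT RAS of the S6K1 series. It was 6.09, 4.03 and 7.43 in WT EV and 24.3, 19.0 and 22.3 in WT RAS of the S6K1/S6K2 series. The ratio of ligand to receptor was higher with RAS in each of the 6 numbered WT pairs. The Plau to Serpine2 ratio was below 1 in all 6 WT EV libraries, at 0.0789 to 0.590. With RAS it was above 1 in the 3 WT libraries of the S6K1 series, at 1.40 to 4.35, and at 2.10, 0.993 and 0.917 in those of the S6K1/S6K2 series. The Plat to Plau ratio lay between 0.977 and 2.82 in WT EV and between 0.109 and 0.199 in WT RAS, over both series. These ranges did not overlap between EV and RAS for any of the 3 ratios.

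**Figure D3:**
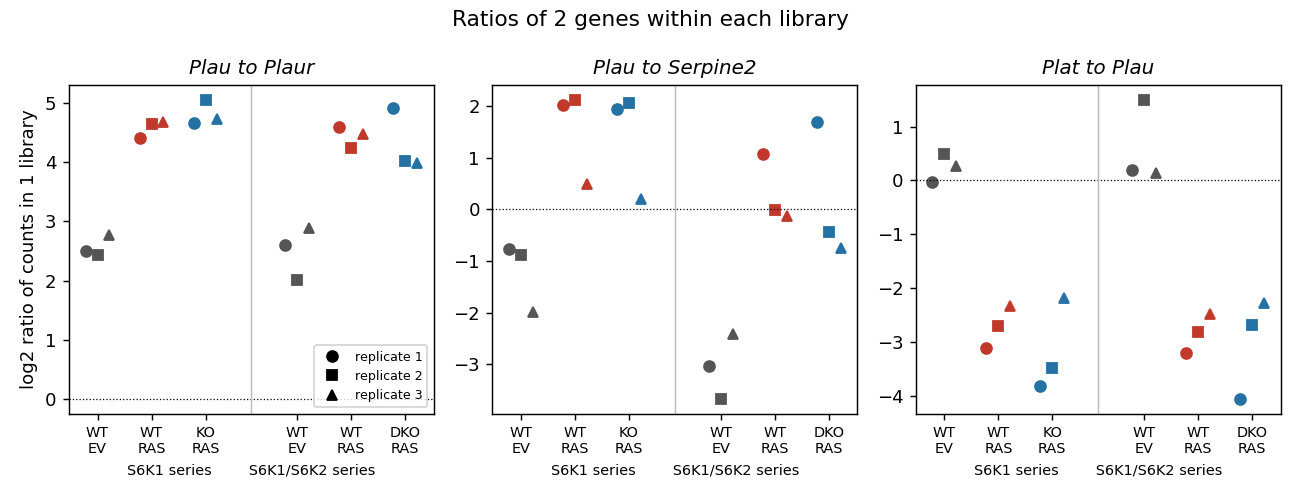
log2 ratio of the counts of 2 genes within each library, for Plau to Plaur, Plau to Serpine2 and Plat to Plau, with symbols by replicate number and the dotted line at equal counts. The Plau to Plaur ratio lies between 2.01 and 2.89 in WT EV libraries and between 3.99 and 5.06 in RAS libraries of any genotype.

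S6K loss gave no call for any of the 6 genes. In KO RAS Plau was at 1997, 2023 and 874 CPM, with a difference from WT RAS of 0.34 on the log2 scale (95% interval -0.38 to 1.06, adjusted p = 0.997). In DKO RAS it was at 2005, 679 and 575 CPM, with a difference of 0.12 (-0.97 to 1.21, adjusted p = 1.00). KO replicate 3 and DKO replicates 2 and 3 were below the other libraries of their groups. The interval of the double knockout reached about 1 log2 unit on either side of 0. Over all genes 0.00712% were called for S6K1 loss (1 of 14036) and 0.0216% for the double loss (3 of 13881) by edgeR. For the 6 genes the count was 0 in each case, with 1 and 0 at an unadjusted p under 0.05, beside 963 and 179 of all genes. DESeq2 called 0 of the 6 in each case, beside 63 and 10 of all genes. For S6K1 loss with the replicate block, edgeR called 0 of the 6, beside 583 of all genes (4.15%). In that fit 2 of the 6 had an unadjusted p under 0.05, beside 2497 of all genes. The targeted gene Rps6kb1 was itself not called for S6K1 loss by edgeR without the replicate block.

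Plaur was at 78.3, 60.7 and 32.8 CPM in KO RAS and at 66.4, 41.9 and 36.3 CPM in DKO RAS, and both groups overlapped WT RAS. Its differences were 0.069 (-0.68 to 0.82) and 0.090 (-0.44 to 0.62). The receptor and its ligand were ordered alike among the KO and the DKO libraries, except that Plau was slightly higher in KO replicate 2 than in replicate 1. Plat was at 141, 182 and 192 CPM in KO RAS and at 121, 106 and 119 CPM in DKO RAS, with differences of -0.19 (-0.50 to 0.13) and -0.26 (-0.71 to 0.19). Plat was below the WT RAS library of the same number in 3 of 3 KO libraries (by 0.030 to 0.28 on the log2 scale). The same held in 3 of 3 DKO libraries (by 0.097 to 0.42), but DKO and WT numbers join embryos of different crosses and are not pairs. Serpine2 was at 521, 484 and 762 CPM in KO RAS and at 623, 921 and 967 CPM in DKO RAS. Its differences were 0.34 (-0.52 to 1.20) and 0.068 (-0.39 to 0.53). For the single knockout, with KO and WT paired by number, the Serpine2 difference with the replicate block was 0.41 (SE 0.122, adjusted p = 0.110), higher in 3 of 3 pairs.

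Serpinb2 was at 23.3, 32.3 and 14.2 CPM in KO RAS and at 33.3, 16.9 and 12.3 CPM in DKO RAS. The KO value was above that of the WT RAS library with the same number in 3 of 3 pairs, by 0.30, 0.64 and 0.011 on the log2 scale. The DKO value was below it in 3 of 3, by 0.17, 0.54 and 1.47, although these numbers join embryos of different crosses. The difference between the series in the effect of loss was -0.97 (95% interval -2.23 to 0.30, unadjusted p = 0.124, adjusted p = 1.00), beside 0.0069% of 14483 genes called, so the 2 directions were not shown to differ. Serpinf1 was at 215, 240 and 258 CPM in KO RAS, all below the 3 WT RAS libraries. Its difference of -0.42 (-0.73 to -0.10) had an unadjusted p of 0.0146 and an adjusted p of 0.587, and 0.104 with the replicate block. In DKO RAS Serpinf1 was at 148, 205 and 266 CPM, overlapping WT RAS, with a difference of -0.075 (-0.80 to 0.64).

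Macrophage markers differed between the genotypes in the same libraries. All 17 were lower in KO RAS than in WT RAS, with a median of -2.17 on the log2 scale, beside 0.031 over all genes tested. By edgeR 17 had an unadjusted p under 0.05, beside 963 of 14036 genes tested, and 0 of the 17 were called. DESeq2 called 1 of the 17, Ptprc, beside 0.449% of all genes. With the replicate block edgeR called 16 of the 17 lower, beside 4.15% of all genes. All 16 tested in the S6K1/S6K2 series were lower in DKO RAS, with a median of -1.91. Of these 1 had an unadjusted p under 0.05, beside 179 of 13881 genes tested, and Aif1 was at or under 3 counts in each DKO library. Plau, Plaur and Serpinb2, which macrophages can also express, were not lower in KO RAS than in WT RAS by their mean levels. In DKO RAS the mean of Serpinb2 was lower, at 20.8 CPM against 32.1 CPM in its WT RAS control, and those of Plau and Plaur were not. Among WT RAS libraries of the S6K1 series, Plau was at 1478 and 1415 CPM where the marker sum was 4134 and 3679 CPM, and at 985 CPM where it was 812 CPM. In WT RAS of the S6K1/S6K2 series Plau was at 1316, 796 and 887 CPM, beside marker sums of 1122, 190 and 280 CPM. KO RAS libraries had 1997, 2023 and 874 CPM beside sums of 978, 759 and 275 CPM. DKO RAS libraries had 2005, 679 and 575 CPM beside 271, 78.0 and 103 CPM. In WT EV the highest Plau and the highest marker sum fell in the same library in the S6K1 series, but not in the S6K1/S6K2 series. Serpinb2 was at 0 to 0.28 CPM in the WT EV libraries of the S6K1 series, where the marker sum was 783 to 3813 CPM, and at 14.1 to 20.7 CPM in its WT RAS libraries. The part of these cells in the levels of Plau, Plaur and Serpinb2 was not tested.

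**Figure D4:**
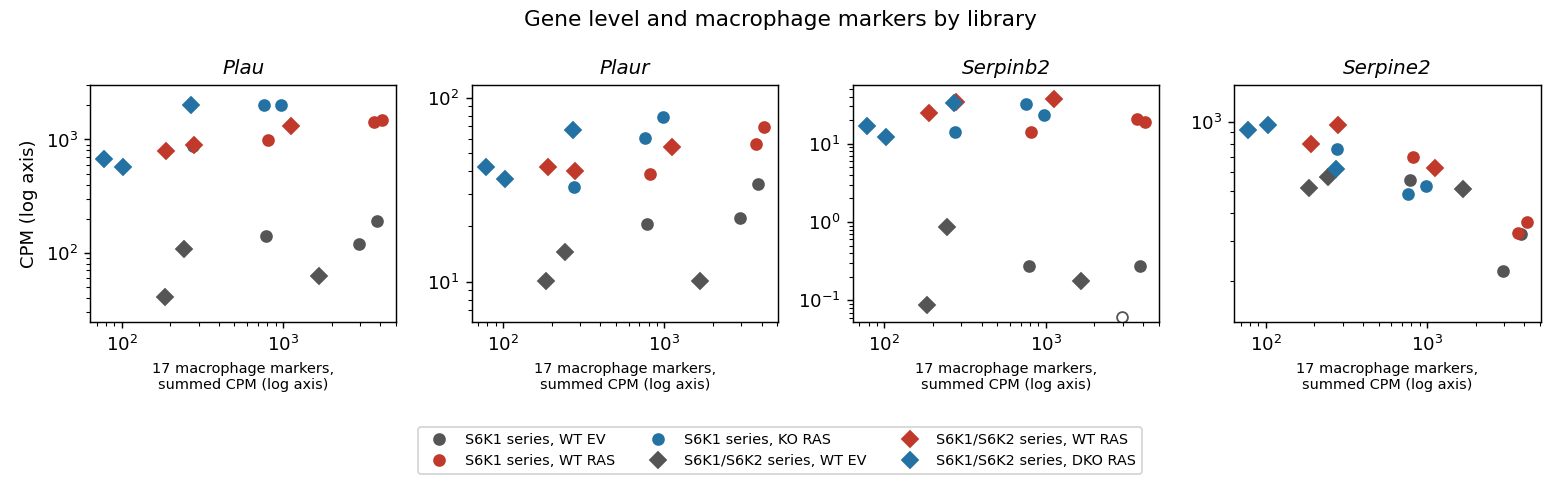
Level of Plau, Plaur, Serpinb2 and Serpine2 in each library against the summed level of 17 macrophage markers, both in CPM on log axes and scaled within each series, with circles for the S6K1 series, diamonds for the S6K1/S6K2 series and an open circle for 0 counts. RAS libraries (red and blue) lie above WT EV libraries (grey) of their series for Plau and Serpinb2. In the S6K1 series the marker sum ran from 783 to 3813 CPM with EV and from 275 to 4134 CPM with RAS. In the S6K1/S6K2 series it ran from 185 to 1660 CPM with EV and from 78.0 to 1122 CPM with RAS.

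RAS cells that lacked S6K were also compared with WT EV cells, which are the same control libraries as for WT RAS. Plau was higher by 3.44 (SE 0.352) in KO RAS and by 3.96 (SE 0.550) in DKO RAS on the log2 scale, next to 3.10 and 3.84 in WT RAS. Serpinb2 was higher by 6.93 (SE 0.558) and 5.73 (SE 0.611). Both were called in KO RAS and in DKO RAS, as in WT RAS. Without DKO RAS replicate 1 the difference of Plau in DKO RAS was 3.17, and over the fits with libraries left out it ran from 3.08 to 4.73. That of Serpinb2 ran from 6.03 to 7.51 in KO RAS, with 6.34 without WT EV replicate 2, and from 4.88 to 7.46 in DKO RAS, with 7.19 without WT EV replicate 3. Serpinf1 fell by 1.12 (SE 0.140) and by 1.58 (SE 0.329), the latter by 0.97 without all replicate 1 libraries, and both calls were lost without all replicate 2 libraries (adjusted p = 0.0528 and 0.127). Plaur was called in both, at 1.16 (SE 0.340, adjusted p = 0.0438) and 2.06 (SE 0.254, adjusted p = 0.000653). The call of Plaur in KO RAS was lost in 9 of 17 alternative fits, among them those without WT EV replicate 2 or 3 (adjusted p = 0.143 and 0.123) and without KO RAS replicate 1 or 2 (0.155 and 0.119). Serpine2 was called in DKO RAS only, at 0.65 (SE 0.208, adjusted p = 0.0436). This call was lost in 10 of 17 alternative fits, among them those without any 1 of the 3 WT EV libraries (0.0506 to 0.118) and without DKO RAS replicate 2 or 3 (0.136 and 0.122). In KO RAS the Serpine2 difference was 0.68 (adjusted p = 0.266), and with the replicate block 0.76 (SE 0.122, adjusted p = 0.000902). Plat was not called in either, at -0.028 and 0.19. The counts were 4 of 6 in KO RAS (3 higher, 1 lower), beside 18.1% of all genes (9.55% higher, 8.56% lower), and 5 of 6 in DKO RAS (4 higher, 1 lower), beside 25.7% (13.1% higher, 12.6% lower).

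Other genes of the plasminogen system were read from a list of 25 compiled for this work, of which 17 were tested. Plg, the substrate itself, had 1 count in all 18 libraries together, and Vtn, Hrg, Cpb2 and Klkb1 had 0 counts in every library, where 3 counts correspond to 0.208 to 0.361 CPM. In the S6K1 series 3 were called higher with RAS and 1 lower, or 8 and 4 with the replicate block, beside 13.2% and 36.2% of all genes. In the S6K1/S6K2 series 5 were higher and 2 lower, beside 26.3%. The list's median was 0.13 and 0.60 on the log2 scale, beside 0.0018 and -0.024 over all genes. Itgb3, the beta subunit of the vitronectin-binding integrin that associates with uPAR, rose from 53.1 to 327 CPM (2.62, SE 0.344, adjusted p = 0.00148) in the S6K1 series. In the other series Itgb3 rose from 16.3 to 238 CPM (3.87, SE 0.365, adjusted p = 0.000184). Its partner Itgav and the beta subunit Itgb1 were called only in the S6K1/S6K2 series, at 1.10 and 1.23, next to 0.13 and 0.37 in the S6K1 series, and edgeR called the difference between series for neither. St14, a membrane serine protease (matriptase) that can activate pro-urokinase, rose by 1.53 and 2.30, from 3.91 and 1.87 CPM. Serpini1 (neuroserpin), an inhibitor of tPA, rose by 1.10 and 1.02 to about 10 CPM (10.4 and 10.8).

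On the side of clearance, Lrpap1, the chaperone of the LDL receptor family that takes up activator-inhibitor complexes, fell by 0.60 (adjusted p = 0.0101) and by 0.93 (adjusted p = 0.00141). The uptake receptor Lrp1 itself was not called, at -0.69 and 0.26, nor were Vldlr, at -0.77 and 0.68, and Mrc2, at -0.35 and -0.046. Plgrkt, a plasminogen receptor, was called lower in the S6K1/S6K2 series only (-0.43, adjusted p = 0.0367). The plasminogen receptor subunits Anxa2 and S100a10 were abundant (1097 and 200 CPM with EV, S6K1 series) and were not called in either series. With the replicate block both were called in the S6K1 series (adjusted p = 0.0136 and 0.000350). Itgam, which also marks macrophages, was at 1.17 and 0.31 and not called without the block.

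**Figure D5:**
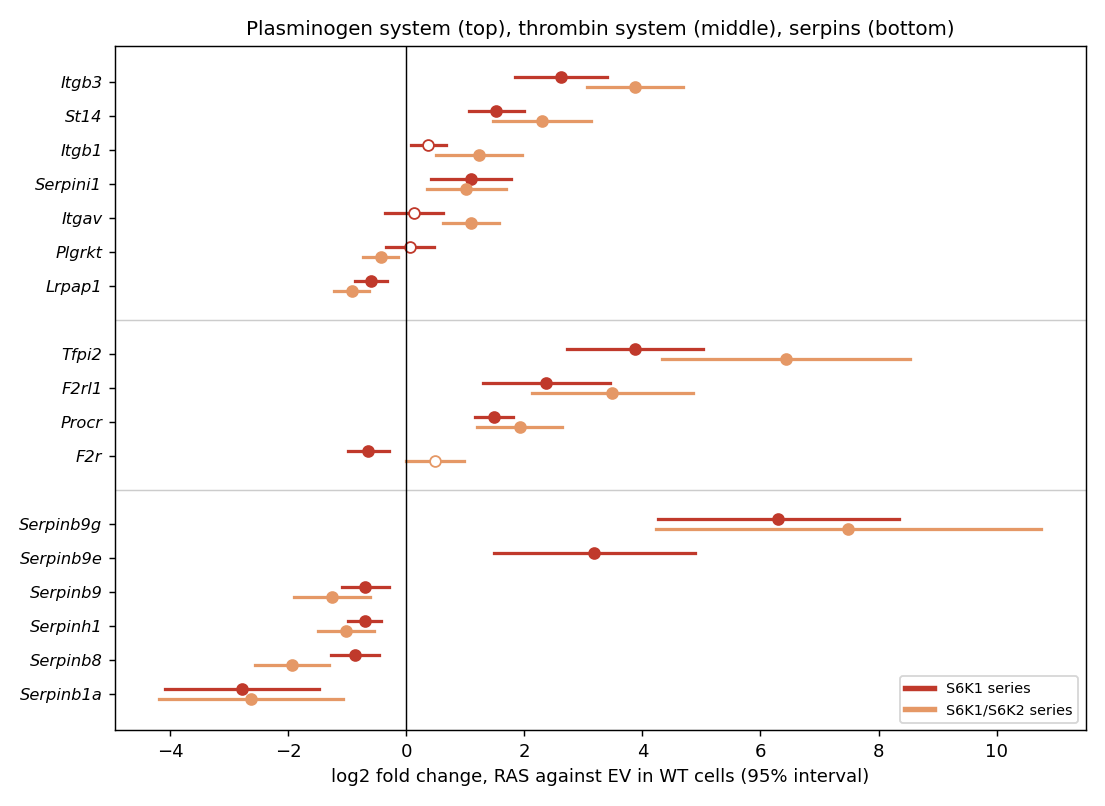
log2 fold change with its 95% interval, RAS against EV in WT cells, for the genes of 3 lists that were called in at least 1 series, filled where called, with the plasminogen system at the top, the thrombin and tissue factor system in the middle and other serpins at the bottom. Itgb3, St14, Tfpi2, F2rl1 and Procr lie above 1 in both series, and Serpinb1a, Serpinb8, Serpinb9 and Serpinh1 lie below 0 in both.

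Serpine2 also inhibits thrombin, so 16 genes of the thrombin and tissue factor system were read in the same way, and 9 were tested. Tfpi2, F2rl1 and Procr were called higher in both series, and 1 gene was lower in the S6K1 series, where the replicate block called 5 higher and 2 lower (beside 13.2% of all genes, and 36.2% with the block, and 26.3% in the S6K1/S6K2 series). The medians were 0.27 and 0.96. Tfpi2, a secreted Kunitz-type inhibitor of plasmin and other serine proteases, rose from 28.0 to 414 CPM (3.88, SE 0.512, adjusted p = 0.00151) and from 1.66 to 145 CPM (6.43, SE 0.941, adjusted p = 0.00149). F2rl1, the protease-activated receptor PAR2, rose by 2.37 and 3.49, and Procr, the endothelial protein C receptor, by 1.48 and 1.92. F2r, the thrombin receptor PAR1, fell by 0.64 (adjusted p = 0.0225) in the S6K1 series and was at 0.48 (adjusted p = 0.130) in the S6K1/S6K2 series. Tissue factor itself, F3, was at 0.27 and 1.09 and was not called without the block (adjusted p = 0.402 and 0.0598), and was called with it (0.0489 and 0.0393). Prothrombin, F2, had 5 counts over all libraries.

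Of 63 other serpin genes in the table, 15 were tested in the S6K1 series and 13 in the S6K1/S6K2 series. The genes tested include Serpini1, which rose in both series and is also counted in the plasminogen list. Among them 3 rose and 4 fell with RAS in the S6K1 series (10 of 15 with the replicate block), beside 13.2% and 36.2% of all genes, and 2 rose and 4 fell in the S6K1/S6K2 series, beside 26.3%. Like Serpinb2, Serpinb9g, a clade B serpin, went from near 0 to a low level, with 1 count in WT EV and 103 in WT RAS of the S6K1 series. This is a ratio of 111, with a counting interval of 19.5 to 4431. For the S6K1/S6K2 series it had 0 and 62 counts, at least 23.7-fold higher against a floor of 3 counts over the group. Serpinb9e went from 11 to 98 counts in the S6K1 series, a ratio of 9.61 (5.14 to 19.9), and was not tested in the other. Serpinb9g and Serpinb9e had at most 1 and 5 counts in a WT EV library of the S6K1 series, and passed the filter through RAS libraries. The Serpinb9 genes are related copies, and reads could be split between them in counting. In the opposite direction Serpinb1a, an inhibitor of neutrophil proteases, fell by 2.78 and by 2.63, and Serpinb8 fell by 0.87 and by 1.93. Serpinb9 itself also lay below 0 in both series. Serpinh1 (HSP47), the collagen chaperone and, like Serpinf1, not known as a protease inhibitor, fell from 2442 to 1497 CPM and from 2583 to 1272 CPM. Of the 10 fibroblast markers 4 fell in both series (Col1a1, Col1a2, Col3a1 and Pdgfrb), 1 rose in the S6K1 series (Lum, by 1.07), and the others were not called. Lum was at -1.73 in the S6K1/S6K2 series and was not called there. Of the 6 epithelial markers 3 were tested, and all 3 were called higher with RAS in both series. Krt8 and Epcam were at or under 3 counts in every WT EV library. They passed the filter through their RAS libraries and could only be called higher. Cdh1 was not tested, at 0.445 and 0.0585 CPM with EV and 0.591 and 0.811 CPM with RAS. Krt18 rose by 4.32 and 5.73, Krt8 by 5.449 and 4.12, and Epcam by 3.718 and 4.796. Krt8 reached means of 6.04 and 2.73 CPM, and Epcam 1.12 and 1.14 CPM. Krt5 and Krt14 were at or under 3 counts in every RAS library. The endothelial marker Cdh5 was called higher in both series, by 4.998 and 6.077, from 0.073 and 0.029 CPM to 2.77 and 2.79 CPM. Cdh5 was at or under 3 counts in every WT EV library. It passed the filter through its RAS libraries, and the size of its rise is uncertain. Of the other endothelial markers tested, only Tek was called, lower in the S6K1/S6K2 series. The part of these changes in the responses of the 6 genes was not tested. For S6K loss edgeR called 0 genes of the 3 lists, with 3 and 0 of their genes at an unadjusted p under 0.05, beside 963 and 179 of all genes. DESeq2 called 0 of their genes, beside 63 and 10 of all genes. With the replicate block 1 gene of the plasminogen list, Itgam, was called lower for S6K1 loss, beside 4.15% of all genes.

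Likeness between genes was described by the Pearson correlation of log2 CPM over the 18 libraries, after the mean of each series was subtracted. These points share treatment, culture and library depth, and no test is given. Plau was closest to Serpinb2 among the 6 (r = 0.981) and to Plaur (r = 0.957), and Serpinf1 ran against Plau (r = -0.886). Plat and Serpine2 stood apart, with r of 0.41 and 0.47 to Plau and 0.21 to each other. Among 9700 genes with a mean count of at least 100, those most like Plau were Dusp5 (r = 0.984), a phosphatase of ERK, Lif (0.983), a cytokine, and Csnk1e (0.982). Those most like Plaur were Tuba4a, Litaf and Setd3, at 0.978 to 0.983. Those most like Serpinb2 were Fam78b, Unc5d and Ctsl (cathepsin L), at 0.985 to 0.986. Serpinf1 was most like the matrix genes Srpx, Mfap4 and Adamts2, at 0.972 to 0.980. The best matches of Plat (Dnajc10, Pla2r1 and Ggta1, 0.847 to 0.877) and of Serpine2 (Ak4, Pabpn1 and Jam2, 0.867 to 0.918) were weaker.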

How the data were processed

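RNA was measured in 18 MEF cultures, 3 in each of 6 groups taken from the sample labels. The authors deposited raw counts per gene, 1 column per library. The study's methods name TruSeq stranded single-end libraries, CASAVA, TopHat, the mm9 genome, HTSeq counts and DESeq2, whereas the submitters' processing notes list mm10, STAR 2.7.1a and DESeq2 1.28.1. The identifiers belong to a later annotation than that of NCBIM37 (mm9), so positions are RefSeq's on GRCm38.p6 (mm10). They describe the genes, not the counting. Strand use in counting is not given in the sources used here, so overlapping antisense reads cannot be told apart. A symbol was found for 32589 of 55401 identifiers, which held 99.1% of counts.

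The test was edgeR's quasi-likelihood test (version 4.0.16 in R 4.3.3), two-sided, on counts scaled by TMM after low genes were dropped with filterByExpr (minimum count 10). The 9 libraries of a series entered 1 fit whose single factor was the group, and p-values were adjusted by Benjamini-Hochberg over every gene tested, with 0.05 as threshold. Differences between series were tested in 1 fit of 18 libraries. DESeq2 1.42.0, other scalings and filters, other sets of libraries, a replicate block and leaving out libraries were alternatives. The block covered the 9 libraries of a series. In the S6K1/S6K2 series it thus joins DKO to WT numbers, which are not pairs. The fit without the block was tested on simulated counts, drawn independently for each library. That simulation held no effect shared by replicate number, so it does not cover such effects. Values are mean ± SD over 3 libraries. Intervals of ratios are exact (Clopper-Pearson, 95%) and, like the floor of 3 counts, cover counting error only, since reads carry no molecular identifiers. Replicate pairs differed by at least 8.62 chi-square per degree of freedom, so none was counted as 1 sample.

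Deviations from the group means correlated within same-numbered EV and RAS libraries (0.301 to 0.655) and within same-numbered S6K1 WT and KO libraries (0.373 to 0.672). The labels do not say that a number marks 1 embryo or litter, and since every correlation was over 0.1 these numbers were taken as pairs. The 6 genes, the gene lists and the marker lists were chosen with earlier results of these data known. Besides the 6 genes, the genes named are those called in the plasminogen and thrombin lists, the 3 highest and 3 lowest serpins called, and the 3 genes most like each. Others (Plg, Vtn, Hrg, Cpb2, Klkb1, F2, F3, Lrp1, Vldlr, Mrc2, Anxa2, S100a10, Itgam and the markers) were named after their values were seen. 1 further serpin gene is not reported here.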

Additional observations from a re-analysis of the deposited data

How the results depend on the processing

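For RAS against EV, Plau and Serpinb2 kept their direction and their call in every alternative that tested them, and no called gene of the 6 reversed in any of 268 alternative values, of which 26 lost the call. The genes called in the RAS effect of the S6K1 series were 3, and 5 with the replicate block. For KO RAS against WT EV they were 4, and 2 when 10 counts were required in every library, a filter that removed Serpinb2. When libraries were left out, including all those of 1 replicate number (an alternative added after seeing in the data that the macrophage marker level differs by number), the counts ran from 2 to 4 and from 2 to 5 for RAS in the S6K1 and the S6K1/S6K2 series, and from 2 to 5 and from 3 to 5 for KO and DKO RAS against WT EV. The lowest counts came without all replicate 2 libraries, and for RAS in the S6K1 series also without all of replicate 1. For S6K loss and for the differences between series the count was 0 in every alternative.

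Values that changed sign did so only when libraries were left out, and none was called. The ranges on the log2 scale were -0.072 to 0.77 for Serpine2 with RAS in the S6K1 series and -0.23 to 0.35 for Plaur on S6K1 loss. On double loss they were -0.67 to 0.43 for Plau, -0.21 to 0.26 for Plaur, -0.080 to 0.24 for Serpine2 and -0.37 to 0.26 for Serpinf1. For Plat against WT EV they were -0.14 to 0.14 in KO RAS and -0.051 to 0.35 in DKO RAS. For the difference in the RAS effect they were -0.070 to 0.61 for Plat, -0.18 to 0.65 for Serpine2 and -1.13 to 1.26 for Serpinb2. For the difference in the loss effect they were -0.99 to 0.13 for Plau, -0.26 to 0.35 for Plaur and -0.17 to 0.12 for Plat. Their cause was not tested.

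The replicate block changed no call of the 6 genes other than those given for Plaur and Serpine2. For DKO against WT RAS, whose numbers join embryos of different crosses (correlations 0.287, 0.424 and -0.0287), it called 8 genes of 13881 in place of 3 (10 with DESeq2) and 0 of the 6. For DKO RAS against WT EV the correlations were 0.202, 0.294 and -0.105, and 3931 genes were called in place of 3565. The blocked count for S6K1 loss was 583 genes in place of 1 (63 with DESeq2), for the RAS effect of the S6K1 series 5085 in place of 1859, for KO RAS against WT EV 5766 in place of 2542, and for the difference in the RAS effect 58 in place of 0 (143 with DESeq2). Levels moved by less than 1 SD in all 36 group means when TMM scaling was left out. Depth limits Serpinb2 with EV, where 0 to 10 counts per library leave the size of its rise uncertain.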
